A study of Homo sapiens with 3 samples.

Results

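The 43 genes described here lie on the long arm of chromosome 17, at 17q23 to 17q24, from HEATR6 to PRKAR1A, with other genes between them. They were selected on measured values of these same arrays, because a run of neighbouring genes from HEATR6 to DCAF7 had high log2 ratios in the neuroblastoma line IMR-32. Ratios of these genes in IMR-32 are therefore a description and support nothing by themselves. A probe set that names the gene alone was present for 42 of the 43 genes (112 probe sets), and PSMC5 was not analysed here. The 42 genes are part of 19775 genes measured. They fall into the run from HEATR6 to DCAF7 (17 genes) and the members after it, from TACO1 to PRKAR1A (25 genes). In the study, mRNA of untreated IMR-32 cells, of untreated NGP cells and of a reference pool of 16 untreated cancer cell lines was measured on 1 expression array each (Affymetrix U133 Plus 2.0). IMR-32 and NGP are established neuroblastoma lines, both with amplified MYCN, grown in medium with fetal bovine serum. Each line is represented by 1 mRNA preparation, and the lines that make up the pool are not given in the sources used here. The copy number arrays of the study were not analysed here.

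Gain of the distal long arm of chromosome 17 is a frequent chromosome change of neuroblastoma, a childhood tumour of the sympathetic nervous system. It usually takes in a long segment with very many genes, so that no single target is apparent from the position alone. In 17q23 the phosphatase gene PPM1D, the helicase gene BRIP1 and the T-box gene TBX2 have drawn attention in breast cancer and neuroblastoma, since PPM1D switches off p53 and DNA damage signalling. Further along the arm lie genes of RNA metabolism, the proteasome, and WNT, protein kinase A and protein kinase C signalling.

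Values are MAS5 signals on a linear scale, whose median over all probe sets was 89.9 in IMR-32, 98.8 in NGP and 119 in the pool. A ratio is the log2 ratio of the line over the pool, with the median taken where a gene has several probe sets. The median ratio of all genes came to -0.23 for IMR-32 and -0.22 for NGP. A gene was called overexpressed if its ratio was among the highest 7%, at or above 1.68 in IMR-32 and 1.84 in NGP. Those within the bottom 7% were called underexpressed, at or below -2.83 and -2.88. The spread between probe sets of one gene (SD, log2 scale) was 1.31 for IMR-32 and 1.41 for NGP. There was 1 array per sample, so the differences have no replicate check, no p-value is given, and the number of arrays limits the precision. Of the 10 sympathoadrenal marker genes 9 were measured, and all 9 had a probe set at or above the array median in both lines and in the pool. In IMR-32, 4 of the 9 had ratios below 0, TH being the lowest at -1.40, and in NGP 0 had. Of the 5 epithelial markers, KRT8 and KRT18 were at or above the array median in both lines, and EPCAM, KRT19 and CDH1 lay below the array median in both lines, with signals of 7.40 to 41.0, against 6791 to 11873 in the pool. The summed signal of the 5 epithelial markers was 383 in IMR-32, 290 in NGP and 65350 in the pool. A low signal in the pool can stand for fewer lines that express the gene or for less RNA per cell, and these cannot be told apart.

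The 42 listed genes were more often above than below the pool in both lines. In IMR-32, 31 of the 42 genes had a ratio above 0 (73.8%), where 41.6% of all genes did. A ratio of at least 1, which is 2-fold, was reached by 15 genes (35.7%, against 14.4% of all genes), and 6 genes were called overexpressed (14.3%, against 7.0%). Since the genes were chosen for this line, nothing is read from these counts. In NGP, which the rule did not name, 25 of the 42 genes had a ratio above 0 (59.5%, against 42.3% of all genes). A ratio of at least 1 was reached by 8 genes there (19%, against 15.4%), and 4 were called overexpressed (9.52%, against 7.0%), so the shares of large ratios were near those of all genes. Over the 42 genes the medians were 0.65 (IMR-32) and 0.33 (NGP). Over all measured genes of the stretch, listed or not, 12 of 25 from HEATR6 to DCAF7 and 26 of 51 from TACO1 to PRKAR1A were above the pool in NGP, so the share in NGP depends on which genes are listed. Both lines were set against the same pool array, so they are not independent of each other. Of all genes, 14710 had a probe set at or above the array median in at least 1 array, and their median ratio in NGP was -0.18, with 43.4% above 0. Of the 42 genes, 41 were among them, TBX4 being the exception. The only gene called underexpressed was CYB561, in IMR-32, and in NGP 0 genes were.

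**Figure D1:**
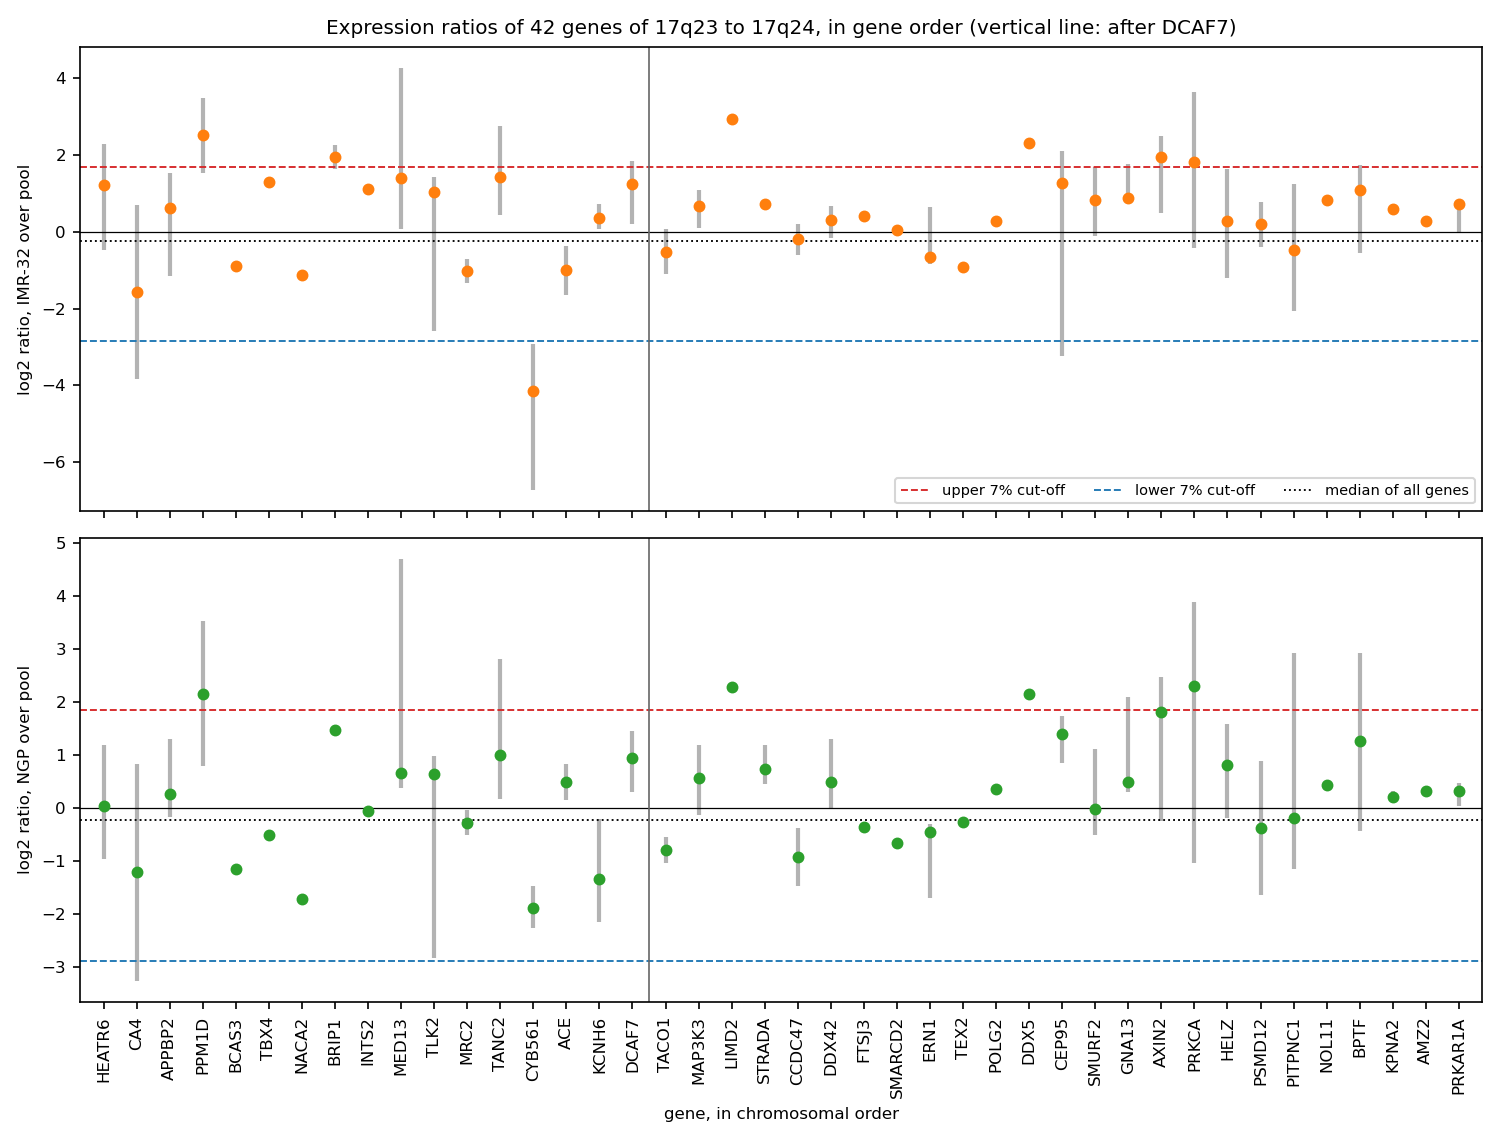
Each of the 42 genes in chromosomal order (x-axis) with its log2 ratio of line over pool (y-axis), in IMR-32 (top) and NGP (bottom). Points are gene medians, grey bars run from the lowest to the highest probe set, dashed lines are the 7% cut-offs and the dotted line is the median of all genes. LIMD2 is the highest point in IMR-32 (2.95), PRKCA in NGP (2.31), and CYB561 the lowest in both (-4.14 and -1.87).

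The genes of the run that act in the DNA damage response were higher than the pool in both lines. PPM1D, the phosphatase also called WIP1 that dephosphorylates p53 and checkpoint kinases, had signals of 3472 in IMR-32, 2058 in NGP and 1187 in the pool from its brighter probe set. Its other probe set had signals of 459 in IMR-32, 465 in NGP and 40.5 in the pool. IMR-32 was highest with the first probe set and level with NGP on the second, and the pool was lowest on both. The ratio of PPM1D was 2.52 in IMR-32 (5.76-fold) and 2.16 in NGP (4.46-fold), past the upper cut-off in each line. With the brighter probe set alone it was 1.55 in IMR-32 and 0.79 in NGP, below the cut-offs, so the size of the ratio rests on the probe set that is dim in the pool.

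BRIP1, a DNA helicase that binds BRCA1 and acts in the repair of DNA crosslinks, had signals of 3865 in IMR-32, 3705 in NGP and 1246 in the pool. The neuroblastoma lines were close together and well above the pool. Its ratio was 1.94 in IMR-32, above the cut-off, and 1.48 in NGP, below it, and the probe sets agreed within 1.63 to 2.25 in IMR-32 and 1.39 to 1.57 in NGP. The call of BRIP1 in IMR-32 was lost in 5 of 11 other settings, among them quantile-normalized arrays (1.92 against a cut-off of 1.98) and the brighter probe set alone (1.63 against 1.79). TLK2, a kinase of chromatin assembly during DNA replication, had signals of 2148 in IMR-32, 1564 in NGP and 789 in the pool, with ratios of 1.05 and 0.65. Of its 4 probe sets, the faintest went the other way, at -2.59 and -2.82. On their brightest probe sets PPM1D, BRIP1 and TLK2 had IMR-32 as the highest array and the pool as the lowest. The run was chosen for high IMR-32 ratios, so this order is a description.

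The sequences around the start sites of PPM1D and BRIP1, the members of the run with the highest ratios, are printed here because both were above the pool in each line. They run from 250 bases before the start to 50 bases after it, 5′ to 3′ on the strand of the gene, and are RefSeq sequences of build GRCh38.p14. The PPM1D window is chr17:60599943-60600242 on the plus strand, and that of BRIP1 is chr17:61863479-61863778 on the minus strand. The letters searched were CACGTG, the E-box that MYC family factors can bind, and TGACGTCA, the cyclic AMP response element, each of which reads the same on both strands. Matches are in capitals.
PPM1D: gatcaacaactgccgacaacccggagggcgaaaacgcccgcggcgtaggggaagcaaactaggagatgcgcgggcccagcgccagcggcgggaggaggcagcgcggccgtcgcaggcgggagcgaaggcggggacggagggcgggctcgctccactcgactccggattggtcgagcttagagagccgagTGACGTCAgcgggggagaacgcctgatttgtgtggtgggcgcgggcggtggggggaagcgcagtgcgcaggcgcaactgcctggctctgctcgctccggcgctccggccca
BRIP1: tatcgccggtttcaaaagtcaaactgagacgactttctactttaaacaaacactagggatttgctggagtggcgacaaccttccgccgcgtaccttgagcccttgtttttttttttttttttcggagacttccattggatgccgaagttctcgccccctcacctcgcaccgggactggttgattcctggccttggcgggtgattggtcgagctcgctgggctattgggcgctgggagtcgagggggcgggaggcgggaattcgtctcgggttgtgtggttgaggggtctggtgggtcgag
PPM1D holds 1 cyclic AMP response element, which begins 61 bases before the start, and the BRIP1 window holds neither motif. Such windows were found for 36 of the 43 genes (58 windows, several genes having more than 1). The E-box was in 4 of the 58 windows (6.90%) and in 7.26% of all 35116 windows. The response element was in 4 of the 58 windows (6.90%) and in 1.85% of all windows, and the 4 windows belong to PPM1D, CCDC47 and PRKAR1A. PRKAR1A accounts for 2 of them, which overlap, and by gene the element was in 3 of 36 members (8.33%) and 2.25% of all genes. A match describes letters and does not show that a factor binds.

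Of the 5 transcription and chromatin genes, 0 were called overexpressed in either line, where 7.0% of all genes were. A ratio above 0 was found for 5 in IMR-32 and 2 in NGP, against 41.6% and 42.3% of all genes. The genes are few and were chosen on IMR-32 values, so nothing is read from these counts. MED13, which links the kinase module to the Mediator complex, had signals of 4471 in IMR-32, 3495 in NGP and 1884 in the pool, and ratios of 1.40 and 0.67. INTS2, a subunit of the Integrator complex that processes small nuclear RNA, had signals of 1461 in IMR-32, 641 in NGP and 668 in the pool from its 1 probe set. For INTS2 the ratio was 1.13 in IMR-32 and -0.06 in NGP, so IMR-32 stood alone. BPTF, the largest subunit of the chromatin remodeller NURF, went the other way round, with signals of 3595 in IMR-32, 4038 in NGP and 1687 in the pool and ratios of 1.09 and 1.26. SMARCD2, a subunit of BAF chromatin remodellers, was at 0.04 in IMR-32 and -0.65 in NGP. TBX4, a T-box factor of limb and lung development, had signals of 33.1 in IMR-32, 9.38 in NGP and 13.4 in the pool, below the median of each array, and ratios of 1.30 and -0.51.

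Other genes of the run with ratios of at least 1 in IMR-32 were HEATR6, TANC2 and DCAF7. HEATR6, a gene of HEAT repeats, had signals of 1277 in IMR-32, 783 in NGP and 609 in the pool, and its 4 probe sets gave ratios from -0.46 to 2.30 in IMR-32 (median 1.22) and from -0.95 to 1.2 in NGP (median 0.05). DCAF7, a WD40 scaffold protein that binds the kinase DYRK1A, had signals of 7466 in IMR-32, 6017 in NGP and 3158 in the pool. All 7 probe sets of DCAF7 lay above the pool in both lines, from 0.20 to 1.84 in IMR-32 (median 1.24) and from 0.30 to 1.45 in NGP (median 0.94). It was the member with the most probe sets, and they all pointed one way. TANC2, a scaffold of synapses, was at 1.43 and 0.99, with signals of 607 in IMR-32, 898 in NGP and 451 in the pool from its brightest probe set. APPBP2, a substrate receptor of a CUL2 ubiquitin ligase, was at 0.61 and 0.26.

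Not every gene of the run was high. CYB561, the cytochrome b561 that carries electrons across the membrane of secretory vesicles, had signals of 110 in IMR-32, 756 in NGP and 2086 in the pool on its brightest probe set. IMR-32 was far below the other arrays, and NGP lay between it and the pool. All 5 probe sets were below the pool, between -6.72 and -2.92 in IMR-32 (median -4.14), and between -2.26 and -1.46 in NGP (median -1.87). MRC2, a collagen receptor of the mannose receptor family, was at -1.02 and -0.28, and BCAS3 at -0.89 and -1.14 from 1 probe set. The surface and channel genes had low signals. CA4, a membrane carbonic anhydrase, had signals of 68.5 in IMR-32, 75.2 in NGP and 42.3 in the pool, but its other probe set was lower than the pool (-3.83 and -3.25). ACE, the angiotensin-converting enzyme, was at 55.7 in IMR-32, 127 in NGP and 71.3 in the pool, and KCNH6, a voltage-gated potassium channel of the ERG type, at 115, 27.6 and 69.7. Their ratios were -1.0 and 0.50 for ACE, and 0.35 and -1.34 for KCNH6.

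NACA2, an intronless copy of the NACA gene of the nascent polypeptide-associated complex, had signals of 86.4 in IMR-32, 57.2 in NGP and 187 in the pool. The pool was the highest array and the ratios were -1.11 and -1.71. NACA itself, which lies on another chromosome, was at -0.08 in IMR-32 and 0.03 in NGP from 3 probe sets. As the copies are much alike in sequence, NACA2 and NACA transcripts may not be told apart by this probe set, and its values are uncertain.

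The window of CYB561 is shown because it was the lowest member and because it holds more than 1 E-box, and one of DDX5 because it faces a neighbour. The CYB561 window is chr17:63446257-63446556 on the minus strand, 1 of 4 windows of this gene, and that of DDX5 is chr17:64506589-64506888 on the minus strand, 1 of 3. They are RefSeq sequences of GRCh38.p14 with E-boxes in capitals.
CYB561: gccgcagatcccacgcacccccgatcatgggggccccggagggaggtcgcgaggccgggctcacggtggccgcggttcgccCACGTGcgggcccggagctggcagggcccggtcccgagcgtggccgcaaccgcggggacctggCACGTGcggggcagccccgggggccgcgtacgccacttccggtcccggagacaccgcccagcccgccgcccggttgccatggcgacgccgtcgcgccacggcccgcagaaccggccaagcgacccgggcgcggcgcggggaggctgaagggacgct
DDX5: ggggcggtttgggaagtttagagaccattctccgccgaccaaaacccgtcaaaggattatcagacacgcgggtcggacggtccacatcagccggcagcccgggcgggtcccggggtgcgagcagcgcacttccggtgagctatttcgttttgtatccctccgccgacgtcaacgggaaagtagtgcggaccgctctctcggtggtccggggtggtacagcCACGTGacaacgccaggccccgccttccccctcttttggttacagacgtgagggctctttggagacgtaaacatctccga
The CYB561 window has 2 E-boxes, the first of which begins 169 bases before the start, and 1 E-box of DDX5 begins 30 bases before it. The other windows with an E-box belong to TBX4 and PRKAR1A. In IMR-32 the ratios of the genes with this motif were -4.14 for CYB561, 0.74 for PRKAR1A, 1.30 for TBX4 (dim in all arrays) and 2.32 for DDX5. The DDX5 value comes from the probe set that names it alone, and its brighter probe set, shared with other genes, was at 0.12.

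**Figure D2:**
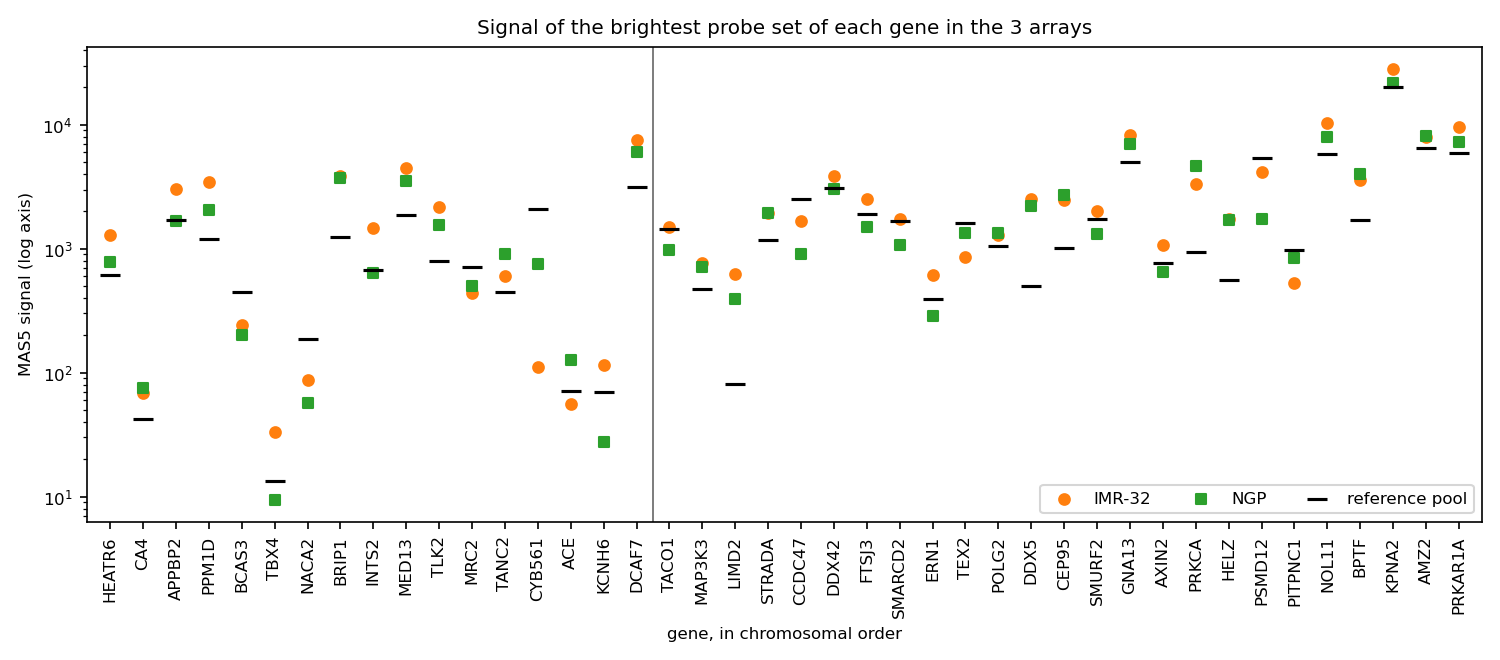
MAS5 signal (y-axis, log scale) of the 42 genes in chromosomal order (x-axis). Arrays are IMR-32 (circles), NGP (squares) and the reference pool (bars), with 1 array each. Each gene is shown by its brightest probe set among those that name it alone. The brighter DDX5 probe set that also names 2 microRNA genes is not shown. PPM1D, BRIP1 and DDX5 have the pool as the lowest of the 3 arrays, and CYB561 has IMR-32 as the lowest (110, against 2086 in the pool).

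Beyond the run, genes of RNA metabolism were mostly close to the pool by their medians, with DDX5 apart on 1 of its probe sets. DDX5, an RNA helicase that also acts as a transcriptional coactivator, had signals of 2494 in IMR-32, 2218 in NGP and 498 in the pool from the 1 probe set that names it alone, for ratios of 2.32 and 2.15. A second, much brighter probe set names DDX5 together with 2 microRNA genes, and its signals were 22457 in IMR-32, 18802 in NGP and 20683 in the pool. On that probe set the arrays hardly differed (0.12 and -0.14), and the median of both was 1.22 in IMR-32 and 1.01 in NGP, below the cut-offs. The call of DDX5 therefore rests on the choice of probe set. DDX42, a helicase of the spliceosome, was at 0.32 and 0.50, and HELZ, another RNA helicase, at 0.28 and 0.82. The brightest probe set of HELZ was further above the pool, at 1.64 in IMR-32 and 1.59 in NGP. FTSJ3 and NOL11, which act in the processing of ribosomal RNA, were at 0.42 and 0.83 in IMR-32 and at -0.35 and 0.44 in NGP.

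In 3 places a gene on the minus strand has a start site within 1000 bases of that of a plus-strand neighbour, so that the pair is transcribed away from a shared stretch. DDX5 and CEP95, a centrosomal protein gene, have starts 339 bases apart at the closest. The signals of CEP95 were 2465 in IMR-32, 2693 in NGP and 1017 in the pool, and its ratios 1.28 and 1.40 (its lowest probe set was at -3.24 in IMR-32), so the lines were above the pool for CEP95, and for DDX5 on the probe set that names it alone but not on the brighter one in NGP. CCDC47 and DDX42 have starts 573 bases apart and lay on opposite sides of the pool by their medians. CCDC47, a protein of the endoplasmic reticulum that helps to insert membrane proteins, had signals of 1670 in IMR-32, 914 in NGP and 2529 in the pool and ratios of -0.20 and -0.92. The other probe set of CCDC47 was above the pool in IMR-32 (0.21). By its median DDX42 was above the pool in each line, but its brightest probe set was at -0.02 in NGP. The third pair is FTSJ3 and PSMC5, of which PSMC5 was not analysed here.

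By their medians the signalling genes lay above the pool in both lines, 6 of 6 in each. Of all genes, 41.6% did in IMR-32 and 42.3% in NGP, and of the 42 listed genes 73.8% and 59.5%. The count depends on which genes are placed in the group. The kinase TLK2 (1.05 and 0.65) and the unfolded protein sensor ERN1 (-0.65 and -0.46) were placed in others. Some probe sets lay below the pool, among them the brightest of AXIN2 (-0.24) and 1 of MAP3K3 (-0.13), both in NGP. PRKCA, protein kinase C alpha, had signals of 3302 in IMR-32, 4616 in NGP and 934 in the pool. It was highest in NGP, with a ratio of 2.31 (4.94-fold) there and 1.82 (3.54-fold) in IMR-32, past the cut-off of each line, although its 5 probe sets spread over -0.43 to 3.65 in IMR-32 and over -1.04 to 3.88 in NGP. The call of PRKCA was lost in 5 of 11 other settings in IMR-32, among them quantile-normalized arrays (1.78 against a cut-off of 1.98), and in 2 of 11 in NGP, among them the mean over probe sets (1.73 against 1.82). AXIN2, an inhibitor and target of WNT signalling, had signals of 1074 in IMR-32, 644 in NGP and 763 in the pool on its brightest probe set, which differed little between arrays. Its other 3 probe sets had pool signals of 13.3 to 34.5, below the array median, and raised the ratio to 1.96 in IMR-32 and 1.81 in NGP. Without dim probe sets AXIN2 was at 1.53 and 1.11, below the cut-offs. GNA13, a G protein alpha subunit, had signals of 8307 in IMR-32, 7007 in NGP and 4959 in the pool, with ratios of 0.87 and 0.50. PRKAR1A, the regulatory subunit of protein kinase A, had signals of 9649 in IMR-32, 7194 in NGP and 5874 in the pool, with ratios of 0.74 and 0.33. All of its 4 probe sets were above the pool in both lines. STRADA, the activator of the kinase LKB1, was at 0.73 and 0.74, and MAP3K3, a kinase upstream of MAP kinases, at 0.68 and 0.57.

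LIMD2, a small LIM domain protein, had the highest ratio of the 42 genes in IMR-32. Its 1 probe set had signals of 621 in IMR-32, 394 in NGP and 80.4 in the pool, for ratios of 2.95 (7.73-fold) and 2.29 (4.90-fold), each past the cut-off. The pool signal lay below the median of its array.

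The ubiquitin ligase gene SMURF2, which acts on TGF-beta receptors, had signals of 2010 in IMR-32, 1319 in NGP and 1727 in the pool, with ratios of 0.84 and -0.02. PSMD12, a lid subunit of the 19S proteasome, was at 0.20 and -0.38, and its 2 probe sets disagreed, with 4121, 1729 and 5403 for the first and 3323, 3563 and 1921 for the second in IMR-32, NGP and the pool. No order of the arrays can be read for PSMD12. KPNA2, an importin of nuclear transport, had signals of 28363 in IMR-32, 21648 in NGP and 20263 in the pool, with ratios of 0.61 and 0.21, and AMZ2, a metallopeptidase, was at 0.29 and 0.33. POLG2, the accessory subunit of the mitochondrial DNA polymerase, was at 0.30 and 0.35, and TACO1, which activates translation of a mitochondrial oxidase subunit, at -0.51 and -0.79.

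By their medians, membrane and secretory genes lay below the pool in 8 of 9 cases in each line. Of all genes, 58.4% did in IMR-32 and 57.7% in NGP. This count too depends on which genes are placed in the group. Beside CA4, MRC2, CYB561, ACE, KCNH6 and CCDC47 the group holds TEX2, ERN1 and PITPNC1. TEX2, a lipid transfer protein of the endoplasmic reticulum, had signals of 859 in IMR-32, 1342 in NGP and 1606 in the pool and ratios of -0.90 and -0.26. ERN1, the sensor of the unfolded protein response also called IRE1, was at -0.65 and -0.46. Its brightest probe set was above the pool in IMR-32 (0.64). PITPNC1, a phosphatidylinositol transfer protein, was at -0.46 and -0.19 over 5 probe sets, the lowest at -2.07 and the highest at 1.26 in IMR-32, and -1.15 and 2.92 in NGP. KCNH6 was above the pool in IMR-32 (0.35) and ACE in NGP (0.50). The median of this membrane and secretory group was -0.90 in IMR-32 and -0.46 in NGP, where the median of all genes was -0.23 and -0.22.

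By position, the IMR-32 values of the run are those that chose the genes, and no reading is made of their height. The median there was 1.05 over the 17 genes of the run and 0.61 over the 25 after it, while 2 of the 17 and 4 of the 25 were called overexpressed. In NGP the medians were 0.05 and 0.35. The genes at the edges of the run were HEATR6 at 1.22 and DCAF7 at 1.24 in IMR-32. Before HEATR6 lay RNFT1 at -0.05, RPS6KB1 at 0.56 and TUBD1 at 0.84, and after DCAF7 lay TACO1 at -0.51, MAP3K3 at 0.68 and LIMD2 at 2.95, so the edges are not sharp. The listed genes are not all measured genes of the stretch, since 34 others lie within it. Of the 8 others within the run, 3 were called overexpressed in IMR-32 (7.0% of all genes were), with a median of 1.19, and 2 in NGP, with a median of -0.80 and 5 of the 8 below the pool. Among those called in IMR-32 was TBX2, with signals of 2928 in IMR-32, 1219 in NGP and 335 in the pool (2.85 and 1.59). The 26 others after the run had a median of -0.51 in IMR-32 and -0.75 in NGP. With all 51 measured genes after DCAF7 the medians were 0.05 in IMR-32 and 0.03 in NGP, so the level of that stretch depends on which genes are listed.

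Along the whole chromosome, the 25 neighbouring genes with the highest median in IMR-32 were those from HEATR6 to DCAF7 (1.13), which is the stretch the rule named. Of 19143 such windows in the genome, 9 were higher, all on chromosome 19, where the highest reached 1.18. Windows overlap and the stretch was chosen on these values, so the rank is a description and not a frequency. In NGP, the highest of the 1102 windows of chromosome 17 ran from PPM1D to STRADA (0.57), and 324 windows of the genome were higher. The rule did not name NGP, but its ratios use the same pool array, so they are not independent of the choice. The 25 genes before HEATR6 had medians of 0.59 in IMR-32 and 0.21 in NGP. The 25 after PRKAR1A had medians of -0.23 and -0.19. Over 315 genes before WSB1, taken here as 17p, the medians were -0.25 and -0.30, and over 521 genes of 17q before HEATR6 they were -0.20 and -0.20. Over the 214 genes of 17q after PRKAR1A the lines differed, with 0.02 in IMR-32 and -0.41 in NGP.

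**Figure D3:**
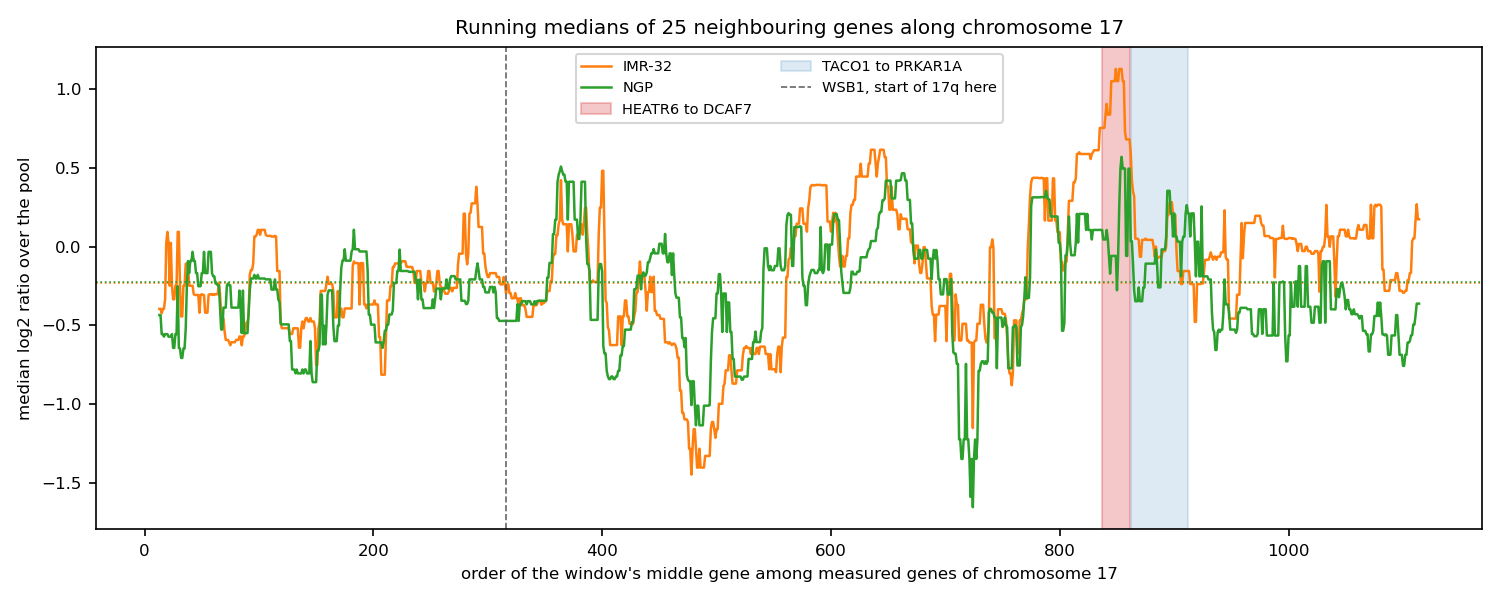
Median log2 ratio over the pool (y-axis) of 25 neighbouring genes along chromosome 17, by the order of the middle gene (x-axis), in IMR-32 and NGP. Shading marks HEATR6 to DCAF7 and TACO1 to PRKAR1A, dotted lines the median of all genes. The IMR-32 line peaks at 1.13 over HEATR6 to DCAF7, and the NGP line peaks at 0.57 over PPM1D to STRADA.

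Set directly against IMR-32, without the pool, the listed genes were more often lower in NGP. Of the 42 genes 28 were lower in NGP (66.7%, against 49.2% of all genes), with a median of -0.25, where the median of all genes was 0.02. The 214 genes of 17q after PRKAR1A did likewise, with 140 lower in NGP (65.4%) and a median of -0.38, so this is not particular to the listed genes. In the run 12 of 17 were lower in NGP (median -0.37), and after it 16 of 25 (median -0.19). IMR-32 is part of this comparison, so the choice of genes bears on it. Few of the differences were large. Past the cut-offs of this comparison (1.95 and -1.84, with 7.0% of all genes at each end) lay CYB561 at 2.27, with all 5 probe sets higher in NGP, from 0.68 to 4.46, and KCNH6 at -2.06, from dim signals. TBX4 came near the lower cut-off at -1.82, also from dim signals. The next lowest were INTS2 (-1.19), ERN1 (-1.04) and HEATR6 (-0.90), whose 4 probe sets were all lower in NGP, from -1.64 to -0.49. On the other side ACE and PITPNC1 were at 1.49, MRC2 at 0.74 and TEX2 at 0.64. Between probe sets of a gene the standard deviation in this comparison was 1.28, and of these only CYB561, KCNH6, TBX4, ACE and PITPNC1 differed by more. The genes called overexpressed in NGP differed little from IMR-32, with PPM1D at -0.37, LIMD2 at -0.66, DDX5 at -0.17 and PRKCA at 0.24.

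**Figure D4:**
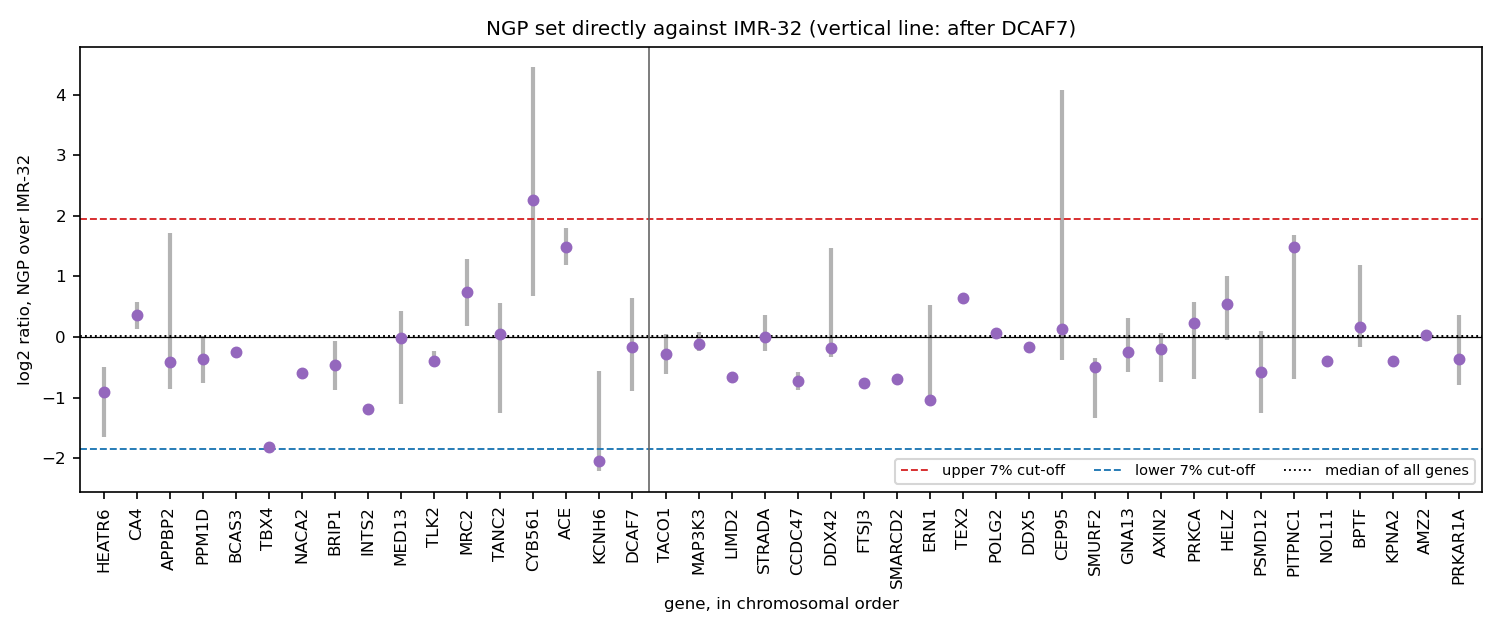
Log2 ratio of NGP over IMR-32 (y-axis) of each of the 42 genes in chromosomal order (x-axis). Points are the median over probe sets, grey bars run from the lowest to the highest probe set, dashed lines are the 7% cut-offs and the dotted line the median of all genes. CYB561 lies above the upper cut-off (2.27), KCNH6 below the lower one (-2.06), and 28 of the 42 points lie below 0.

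Probe sets of the same gene often disagreed in direction. Of the 30 genes with several probe sets, 12 had all of them above the pool in IMR-32, 3 had all below and 15 were mixed. In NGP 11 had all above, 6 all below and 13 were mixed. Of the 112 probe sets 14 lay below the median of all 3 arrays. Of the other 98, 75 were above the pool in IMR-32 and 64 in NGP, where 48.3% and 47.5% of the 27984 such probe sets of all genes were. Members whose probe sets all pointed up in both lines were PPM1D, BRIP1, MED13, TANC2, DCAF7, STRADA, GNA13, KPNA2 and PRKAR1A.

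Complex partners, pathway neighbours and relatives of the members are given by list. Of all genes, 7.0% were called overexpressed in each line, and 49.2% were lower in NGP than in IMR-32. The 13 other Integrator subunits measured had medians of 0.27 in IMR-32 and 0.30 in NGP, with 0 called overexpressed in either line, beside 1.13 and -0.06 for INTS2. The 6 genes of the Mediator kinase module had medians of 0.70 and 0.14, with 0 called overexpressed, beside 1.40 and 0.67 for MED13. Of 12 measured genes that work with BRIP1 in Fanconi anaemia and BRCA repair, 1 was called overexpressed in IMR-32, BRCA1 at 1.73, and 0 in NGP, with medians of 0.81 and 0.56. Of 9 measured genes of p53 and DNA damage signalling around PPM1D, 0 were called in IMR-32 and 1 in NGP, which is MDM2 at 2.40. The medians of these genes were 0.22 in IMR-32 and -0.00045 in NGP. The study reports MDM2 in a region with high-level amplification in NGP cells. A link of the MDM2 ratio to PPM1D was not tested. The 14 other subunits of the 19S proteasome had medians of -0.07 and 0.06. For 24 measured paralogs of members elsewhere in the genome the medians were 0.30 and -0.12, with 1 called in IMR-32 and 2 in NGP. Of 18 measured candidate genes of 17q gain outside the list, 3 were called overexpressed in IMR-32 (16.7%) and 1 in NGP (5.56%). Called underexpressed were 1 in IMR-32 and 2 in NGP, with VMP1 the lowest at -3.29 and -4.37. The highest in each was IGF2BP1 at 3.29 and 2.65, and 17 of the 18 were lower in NGP than in IMR-32 (94.4%).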

How the data were processed

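Expression was measured in IMR-32, NGP and a pool of 16 cancer cell lines, 1 Affymetrix U133 Plus 2.0 array each. The deposited values are signal intensities, made by the authors from the scanned arrays with MAS5 in the Bioconductor package affy (version not given in the sources used here). Each array has a mean of 500 with the top and bottom 2% of 54675 probe sets left out. Control probe sets (62) were left out, and the 41091 probe sets naming 1 gene symbol were used, 41037 of them matched by gene ID to the RefSeq table (GRCh38.p14), which gave current symbols, gene order and promoter windows. Log2 ratios were computed without a pseudocount, and a gene took the median over its probe sets. Calls are the top and bottom 7% of ratios, as in the study's methods. No p-value was computed. The members and lists were chosen with earlier results of these data known. All members were named, and other genes only as lists, near copies, the highest or lowest of a list, or where a result turns on them. RNFT1, RPS6KB1, TUBD1, TBX2 and the DDX5 probe set that names several genes were picked after their values were seen. For the run and for the members after it, 13 planned and 2 added alternatives were tried. Scripts were checked on simulated data and ran in Python (3.11.15) with pandas 2.3.3 on numpy 2.4.6, SciPy (1.17.1) and, for plots, matplotlib 3.10.9.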

Additional observations from a re-analysis of the deposited data

How the results depend on the processing

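The number of members called overexpressed, 6 in IMR-32 and 4 in NGP, was 3 in IMR-32 with the brightest probe set, 3 and 2 when the cut-off was set on probe sets, 3 and 2 with the top 5%, 15 and 8 with a log2 ratio of at least 1, 10 and 7 with all 76 measured genes of the stretch, and 1 and 1 with the other line as reference. With log2(signal + 32) it was 7 in NGP. The median of HEATR6 to DCAF7 in IMR-32 (1.05) was 0.52 with log2(signal + 32), 0.40 with the mean over probe sets and 0.37 with NGP as reference. In NGP (0.05) it was -0.059 with the mean over probe sets and with all measured genes, -0.27 without _s_at and _x_at probe sets, and -0.37 with IMR-32 as reference, so that it has no firm sign. The median of TACO1 to PRKAR1A was 0.051 in IMR-32 and 0.031 in NGP with all measured genes, and 0.19 and -0.19 with the other line as reference. With the other line as reference PRKCA in IMR-32 was at -0.24, and in NGP PPM1D was at -0.37, LIMD2 at -0.66 and DDX5 at -0.17. Leaving out TBX4, dim in all arrays, and adding the second DDX5 probe set were chosen after seeing the data; the first gave medians of 0.83 in IMR-32 and 0.15 in NGP for the run. The causes were not tested. Of 331 values of single genes in each line, 310 in IMR-32 and 316 in NGP moved by less than the standard deviation between probe sets. That yardstick is wide, at 1.31 and 1.41, beside member medians of 0.65 and 0.33. A value within it could still change sign or lose its call, so the counts do not show that ratios or calls are stable. The IMR-32 call of AXIN2 was lost in 7 of 11 settings. Signals near background limit CA4, TBX4, NACA2, ACE and KCNH6. No paired analysis was possible because each group has 1 array.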
